A study of Mus musculus with 2 samples.

Results

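The choroid plexus ion and water transport genes described here are 10 genes chosen by name: Clic6, Kcne2, Kcnj13, Aqp1, Slc4a5, Slc4a2, Slc12a2, Car12, Car14 and Atp1b1. All 10 were found by gene symbol among the 19720 genes of the deposited count table. RNA was sequenced from telencephalic tissue of C57BL/6 mouse embryos of 2 genotypes: floxed H2A.Z alleles (H2AZfl/fl), used here as the control, and an H2A.Z conditional knockout (H2AZcKO). The histone H2A.Z replaces H2A in some nucleosomes. The labels disagree on age, with embryonic day 16 in the titles and embryonic day 12 in a characteristics field, and the protocol speaks of cerebral cortex that was dissected out. The title of the control sample calls it WT, although its genotype field gives floxed alleles. The Cre driver is not stated, nor are the number of animals and any pooling. Triplicates are mentioned in the design text, but the table holds 1 count column per genotype, so all comparisons set 1 library against 1 other and have no replicate check. No p-value was computed.

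The choroid plexus is an epithelium that hangs into the brain ventricles and secretes cerebrospinal fluid. Its cells move sodium, chloride and bicarbonate from blood to ventricle, and water follows, partly through aquaporin channels. The sodium-potassium ATPase sets the sodium gradient, carbonic anhydrases supply bicarbonate and protons, and bicarbonate exchangers, cation-chloride cotransporters and potassium channels carry ions across the apical and basolateral membranes. For the comparison, Clic6, Kcne2, Kcnj13, Aqp1, Slc4a5 and Car12 were taken as choroid-restricted within the embryonic forebrain. Slc4a2, Slc12a2, Car14 and Atp1b1 were taken as broadly expressed. Both the genes and this split were chosen with earlier results of these data known, so the contrast between the sets is a description. Car14 differed from the other broadly expressed genes in the values that follow.

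Reads assigned to genes numbered 8474545 for the control and 9028523 for the knockout. A gene is called measured where both libraries together gave 20 reads or more, which 14366 of the listed genes did. Ratios are log2 of knockout over control after TMM scaling, which corrects library totals for composition, with 0.5 read added to each count. Each interval is a 95% exact (Clopper-Pearson) one, computed from how the reads of a gene divide between the libraries, and covers only counting error. The median log2 ratio of all measured genes was 0.00176. A knockout level at least 1.5-fold lower was found for 5.43% of measured genes, and one at least 1.5-fold higher for 3.52%. The targeted gene, H2afz, had 1152 control and 535 knockout reads, log2 ratio -1.16 (interval -1.31 to -1.01).

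Promoter sequence, which played no part in choosing the genes, also differed between members. RefSeq starts on GRCm38.p6 were found for 8 of the 10 genes, not for Clic6 and Slc12a2. The 250 bases before each start are printed here for 5 genes, because they show the contrast in CpG content between Kcne2, Kcnj13 and Car12 on one side and Slc4a2 and Atp1b1 on the other. They are written 5′ to 3′ on the strand of the gene, and capitals mark each CpG dinucleotide. The Kcne2 window is chr16:92292139-92292388 on the plus strand and holds 9 CpG.
Kcne2: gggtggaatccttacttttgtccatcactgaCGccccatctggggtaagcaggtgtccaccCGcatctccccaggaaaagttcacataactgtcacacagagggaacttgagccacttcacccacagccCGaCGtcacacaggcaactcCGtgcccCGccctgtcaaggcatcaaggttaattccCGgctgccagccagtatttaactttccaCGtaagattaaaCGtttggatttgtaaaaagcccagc
The Kcnj13 window is chr1:87394730-87394979 on the minus strand and holds 3 CpG.
Kcnj13: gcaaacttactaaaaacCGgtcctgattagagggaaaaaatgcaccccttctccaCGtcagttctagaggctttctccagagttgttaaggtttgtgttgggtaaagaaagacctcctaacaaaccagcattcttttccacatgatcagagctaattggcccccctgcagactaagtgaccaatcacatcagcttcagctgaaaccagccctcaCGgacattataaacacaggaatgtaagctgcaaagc
The Car12 window is chr9:66713436-66713685 on the plus strand and holds 6 CpG.
Car12: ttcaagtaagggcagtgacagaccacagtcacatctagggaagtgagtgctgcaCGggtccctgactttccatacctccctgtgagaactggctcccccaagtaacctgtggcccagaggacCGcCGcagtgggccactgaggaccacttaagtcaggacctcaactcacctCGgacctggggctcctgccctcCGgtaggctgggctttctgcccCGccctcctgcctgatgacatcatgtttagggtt
The first Slc4a2 window is chr5:24424982-24425231 on the plus strand and holds 28 CpG.
Slc4a2: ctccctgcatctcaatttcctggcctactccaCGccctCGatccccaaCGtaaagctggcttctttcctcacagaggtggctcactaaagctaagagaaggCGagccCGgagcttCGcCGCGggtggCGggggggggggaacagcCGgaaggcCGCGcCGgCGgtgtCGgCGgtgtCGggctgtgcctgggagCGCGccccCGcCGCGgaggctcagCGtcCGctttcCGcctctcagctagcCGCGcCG
The Atp1b1 window is chr1:164458356-164458605 on the minus strand and holds 24 CpG.
Atp1b1: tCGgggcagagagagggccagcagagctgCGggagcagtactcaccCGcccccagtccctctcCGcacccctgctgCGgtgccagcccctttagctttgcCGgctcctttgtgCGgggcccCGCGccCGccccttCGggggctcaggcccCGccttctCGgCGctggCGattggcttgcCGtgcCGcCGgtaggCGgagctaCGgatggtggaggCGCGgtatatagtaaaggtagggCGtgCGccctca

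The CpG ratio, which is the observed number of CpG over the number expected from the C and G content, was computed for all 10 starts of these 8 genes. It was 0.544 and 0.0710 at the 2 Kcne2 starts, 0.240 at Kcnj13, 0.212 at Aqp1, 0.245 at Slc4a5, 0.276 at Car12 and 0.416 at Car14. At Slc4a2 it was 0.936 and 0.684 at the 2 starts, and at Atp1b1 it was 0.775. The split into choroid-restricted and broadly expressed genes did not separate these values, since Car14, a broadly expressed gene by that split, lay below the first Kcne2 start. Over 13774 starts of measured genes the median was 0.711, and 30.5% of them had a ratio at or below 0.544. A match to TAATCC on either strand, the core motif bound by OTX factors, was found in the window of Car14 alone among the members, against 4.92% of all starts. TATAAA on either strand was present at Kcnj13 and Slc4a5 and at 6.39% of all starts. The Slc4a5 match lies at -127 from the start, and 103 of the 250 bases of that window lie in annotated exons. The windows of Slc4a5, the second Kcne2 start and the 2 Slc4a2 starts lie inside the gene spans given below. These are descriptions of letters in a window, and binding was not measured.

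Choroid-restricted channel and transporter genes were far lower in the knockout library. The 6 genes summed to 646 control reads and 37 knockout reads, or 75.3 and 4.15 TMM-scaled CPM (reads scaled to a common library size). Every one of the 6 had fewer knockout than control reads, and none had more than 18 knockout reads. Summed reads of the 4 broadly expressed genes were 1735 and 1742, or 202.3 and 195.3 TMM-scaled CPM. This sum hides opposite differences, since Car14 and Slc4a2 had fewer knockout than control reads and Atp1b1 had more. In bulk tissue, fewer cells of a type and less RNA per cell cannot be told apart. Summed markers of meninges and fibroblasts were also lower, at 273.5 CPM in the control and 21.7 CPM in the knockout library. Those of dorsal forebrain neurons and progenitors were at 5017 and 5207 CPM. Whether dissection left unequal amounts of choroid plexus or meninges in the libraries was not tested, since neither genotype has a replicate library.

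Clic6 belongs to the chloride intracellular channel family and lies on chromosome 16 from 92485736 to 92541243 (ENSMUSG00000022949). It had 227 control reads and 6 knockout reads, log2 ratio -5.19 (interval -6.76 to -4.15), or 36.4-fold lower. It had the most reads of the choroid-restricted genes in the control library. Kcne2 encodes a single-pass accessory subunit that joins potassium channel pores such as those of Kcnq1 and Kcna3 and lies on the same chromosome from 92292389 to 92298129 (ENSMUSG00000039672). It had 130 and 4 reads, log2 ratio -4.91 (interval -6.98 to -3.69), or 30.2-fold lower.

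Kcnj13 encodes the inward rectifier potassium channel Kir7.1 of the apical membrane of the choroid plexus and lies on chromosome 1 from 87386363 to 87394729 (ENSMUSG00000079436). It had 11 control reads and 0 knockout reads, below the minimum of 20, and is the 1 gene of the 10 not counted as measured. Against a floor of 3 reads in the knockout library it was 3.81-fold lower. The exact interval on the log2 ratio lay below -1.38, which allows a difference as small as 2.61-fold. Kcnj13 lies within Gigyf2, a gene on the opposite strand with 999 and 1108 reads, and 49.1% of the Kcnj13 exon bases overlap exons of Gigyf2. Whether the counting used strand is not stated, so Kcnj13 reads are uncertain.

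Slc4a5 encodes a sodium bicarbonate cotransporter of the choroid plexus and lies on chromosome 6 from 83219828 to 83304945 (ENSMUSG00000068323). It had 62 control reads and 1 knockout read, a log2 ratio of -5.44 with a wide interval (-11.3 to -3.48). Aqp1 encodes the water channel aquaporin 1, which is also present in red blood cells, and lies on chromosome 6 from 55336432 to 55348555 (ENSMUSG00000004655). It had 94 and 8 reads, log2 ratio -3.53 (interval -4.86 to -2.57), or 11.6-fold lower. Erythroid markers, set beside Aqp1 because red cells carry its protein, were closer to level: 1 of 7 measured was at least 1.5-fold lower, and the list sum was 313.7 CPM against 257.4 in the knockout library.

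Both membrane-bound carbonic anhydrases of the set were lower by a smaller factor. These enzymes interconvert carbon dioxide and bicarbonate at the outer cell surface. Car12 lies on chromosome 9 from 66713686 to 66766845 (ENSMUSG00000032373) and had 122 and 18 reads, log2 ratio -2.78 (interval -3.62 to -2.10), or 6.89-fold lower. Car14, on chromosome 3 from 95897768 to 95904691 (ENSMUSG00000038526), had 95 and 15 reads, log2 ratio -2.68 (interval -3.61 to -1.93), or 6.41-fold lower. The intervals of Car12 and Car14 largely coincide. Part of Car14, 17.5% of its exon bases, is shared with exons of Aph1a on the opposite strand, and Aph1a had 392 and 405 reads.

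The lower genes did not all differ by the same factor. Among the 6 members lower by 1.5-fold or more, 4 of 15 pairs had intervals that do not overlap: Clic6 and Kcne2 were each below Car12 and below Car14. Aqp1 and Slc4a5 overlapped with both of these pairs. Read as a share of the control level, the knockout level was 2.75% for Clic6, 3.32% for Kcne2, 8.65% for Aqp1, 14.5% for Car12 and 15.6% for Car14.

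**Figure D1:**
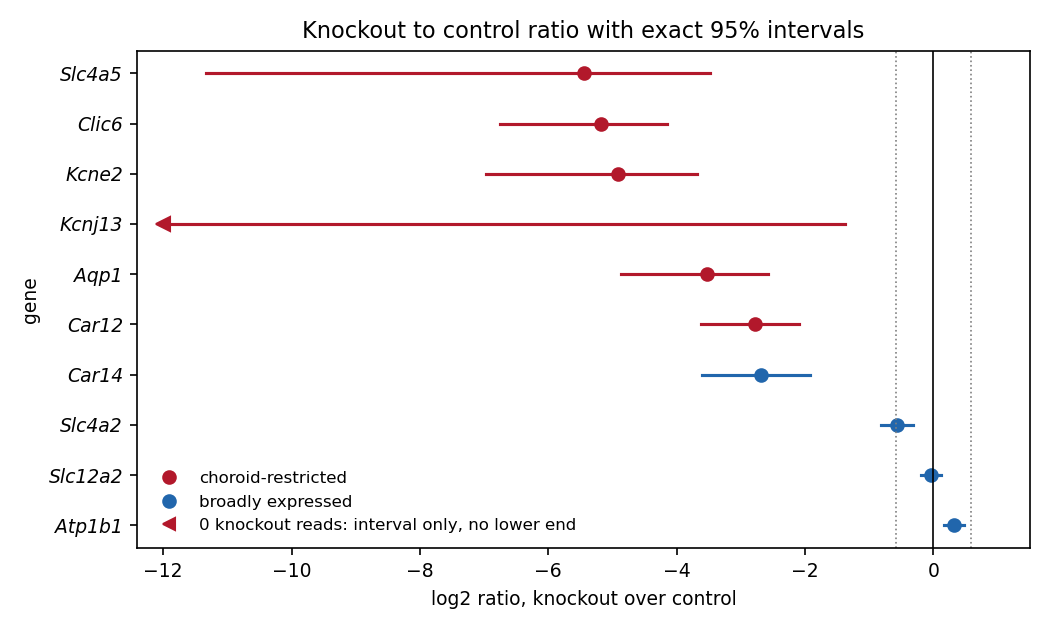
Log2 ratio of knockout over control (x axis) for each of the 10 genes (y axis), with exact 95% intervals for counting error as lines, choroid-restricted genes in red and broadly expressed genes in blue. Dotted lines mark 1.5-fold either way; Clic6 and Kcne2 lie near -5, Car12 and Car14 near -2.7, Slc12a2 next to 0, and Kcnj13, with 0 knockout reads, has an interval with no lower end.

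Broadly expressed transporters other than Car14 stayed within 1.5-fold of level and differed among themselves in direction. Slc4a2 encodes the chloride-bicarbonate exchanger AE2 and lies on chromosome 5 from 24423837 to 24440950 (ENSMUSG00000028962). It had 332 and 233 reads, log2 ratio -0.57 (interval -0.82 to -0.32), just inside the 1.5-fold limit, which is 0.58 on the log2 scale in either direction. Its exons share 13.7% of their bases with Fastk on the opposite strand, which had 477 and 418 reads. With scaling by the library total Slc4a2 was at -0.60 and crossed that limit.

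Slc12a2 encodes the sodium-potassium-chloride cotransporter NKCC1, found in neural progenitors and immature neurons as well as in choroid plexus, and lies on chromosome 18 from 57878678 to 57946821 (ENSMUSG00000024597). It had 712 and 721 reads, log2 ratio -0.04 (interval -0.19 to 0.11). The interval leaves room for a difference of up to 1.14-fold lower or 1.08-fold higher by counting error. Atp1b1 encodes the beta 1 subunit of the sodium-potassium ATPase, which neurons also express, and lies on chromosome 1 from 164437109 to 164458355 (ENSMUSG00000026576). It had 596 and 773 reads, log2 ratio 0.32 (interval 0.16 to 0.48), or 1.25-fold higher, and was the single member higher in the knockout library. Nme7 on the opposite strand shares 18.7% of the Atp1b1 exon bases and had 177 and 154 reads.

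With 9 members measured, 6 were lower by 1.5-fold or more and 0 higher by as much, against 5.43% and 3.52% of all measured genes. With the added condition that the interval excludes 0, the counts were again 6 and 0, against 3.2% and 2.02% of all measured genes. All 6 had under 20 reads in the knockout library and so were measured only through their control reads. Such genes had to be lower, and the count is a description of them. The median log2 ratio was -4.91 (-3.54 with a prior of 5 reads) for the 5 choroid-restricted genes measured and -0.30 for the 4 broadly expressed genes, which include Car14. Among all 3510 genes with 62 to 227 control reads, the range of the 5 measured choroid-restricted genes, 5.21% were at least 1.5-fold lower and 0.712% at least 4-fold lower. These shares are given as background, and nothing about the 5 genes is read from them, since their read minimum was passed through the control library.

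**Figure D2:**
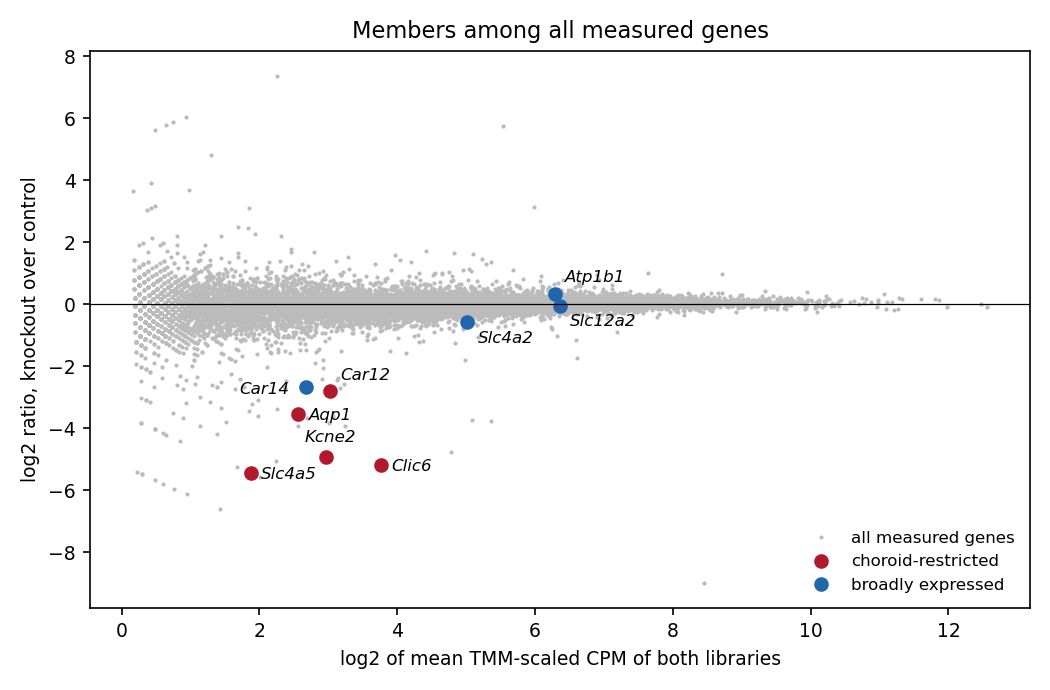
Log2 ratio of knockout over control (y axis) against the log2 of the mean TMM-scaled CPM of both libraries (x axis) for the 14366 measured genes in grey, with 5 choroid-restricted genes in red and 4 broadly expressed genes in blue. The red points and Car14 lie below the main cloud, whereas Slc12a2 and Atp1b1 lie within or next to it.

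In the authors' deposited table, 7 of the 10 genes were marked significant, all of them higher in the control, whereas 1.17% of all listed genes were marked and higher in the control. The marked genes were Clic6, Kcne2, Kcnj13, Aqp1, Slc4a5, Car12 and Car14. The test behind the authors' deposited table is not stated. With 1 column per genotype, its adjusted p-values compare these libraries and not the genotypes. For Slc4a2 the authors' deposited table has an adjusted p of 4.56e-05 and a 1.52-fold difference, without a mark.

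Levels can be compared between genes per kb of exon. In the control library Atp1b1 was the highest of the 10 at 22.6 TMM-scaled CPM per kb (exact 95% Poisson interval 20.8 to 24.4). Next in the control library came Kcne2 at 8.58, Slc12a2 at 7.60 and Clic6 at 6.76 CPM per kb, and neighbours in this order had overlapping intervals. The potassium channel subunit gene and the chloride channel family gene thus stood in the control library at levels near that of the broadly expressed cotransporter. Slc4a2 at 4.65, Car14 at 4.36 and Aqp1 at 4.17 CPM per kb followed and could not be separated by their intervals. Car12 at 1.87, Slc4a5 at 1.25 and Kcnj13 at 1.01 CPM per kb were the lowest in the control library, each overlapping with the next.

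In the knockout library the same measure split the genes. Atp1b1 was at 28.1, Slc12a2 at 7.40 and Slc4a2 at 3.14 CPM per kb, each apart from the next by its interval. The other 7 genes were all under 1 CPM per kb: Car14 was highest of these at 0.661 (0.370 to 1.09), and Clic6 was at 0.172 (0.0631 to 0.374). Kcne2, second of the 10 in the control library, was seventh of the 10 in the knockout library at 0.254 CPM per kb (0.0691 to 0.650). From Car14 down, each gene's interval overlapped with the next. The intervals of Car14, Aqp1 and Car12 lay above that of Slc4a5, and the interval of Car14 also lay above that of Kcnj13.

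**Figure D3:**
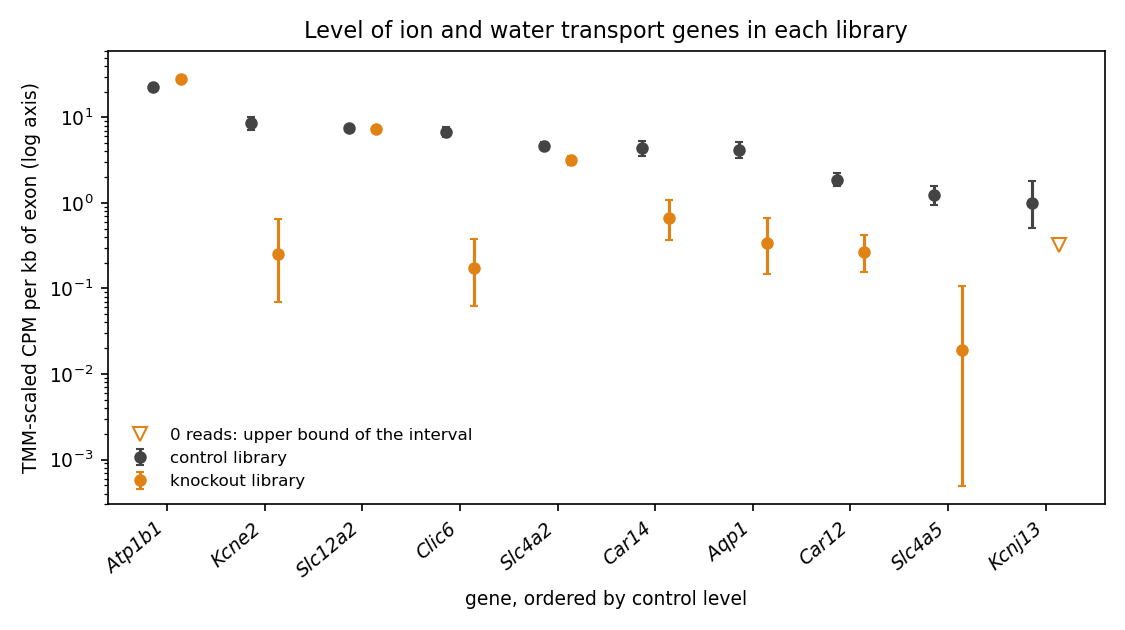
TMM-scaled CPM per kb of exon (y axis, log scale) for each gene (x axis, ordered by control level) in the control library (grey) and the knockout library (orange), with exact 95% Poisson intervals; the open triangle is the upper bound for Kcnj13, which had 0 knockout reads. The intervals of the 2 libraries overlap for Slc12a2, Atp1b1 is higher and Slc4a2 lower in the knockout library by less than 1.5-fold, and the other 7 genes are under 1 CPM per kb in the knockout library.

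Relatives of the members were mostly level. Of 104 related transport and regulator genes that are no member, 63 were measured. Of these, 4 were at least 1.5-fold lower and 2 at least 1.5-fold higher, with 4 of the 6 beyond counting error, and their median log2 ratio was 0.03.

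The sodium-potassium ATPase list, pump subunits and the FXYD proteins that modulate them, had 10 measured genes, Atp1b1 included, and 0 were at least 1.5-fold apart. Their median log2 ratio was 0.11, and Atp1b1, at 0.32, was the highest of them.

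Among 9 measured genes of the SLC4 bicarbonate transporter family, 2 were at least 1.5-fold lower: Slc4a5 and the red cell anion exchanger gene Slc4a1, which had 18 and 12 reads and an interval that includes 0. Slc4a8, a sodium-driven bicarbonate transporter gene of neurons with the most reads of this family in the sum of both libraries, had 849 and 1145 reads, log2 ratio 0.37 (interval 0.25 to 0.50). Slc4a10, a sodium-dependent bicarbonate transporter gene of both choroid plexus and cortical neurons, had 269 and 249 reads, log2 ratio -0.17 (interval -0.42 to 0.09). The family median was -0.04.

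Of 6 measured SLC12 cotransporter genes 0 were at least 1.5-fold apart, and the chloride extruder gene of neurons, Slc12a5, was at log2 ratio 0.38 (interval 0.21 to 0.55). Slc12a2 had the most reads in this family. The WNK and SPAK kinases phosphorylate these cotransporters. Of 8 measured kinase-list genes 1 was at least 1.5-fold lower, Wnk4, a kinase gene with 43 and 23 reads and log2 ratio -0.94 (interval -1.76 to -0.20). Wnk1, the gene of a widely expressed WNK kinase, had the most reads of this list in the sum of both libraries, 3008 and 3016.

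Carbonic anhydrases had 7 measured genes, of which 3 were at least 1.5-fold lower: Car12, Car14 and Car15, a membrane-anchored form with 16 and 8 reads and an interval that includes 0. The cytosolic enzyme gene Car2, also present in choroid plexus and red cells, had 81 and 64 reads, log2 ratio -0.39 (interval -0.89 to 0.09). Car11, a catalytically inactive relative with the most reads in the list, had 209 and 204 reads. Among aquaporins 2 genes were measured, Aqp1 and Aqp11, an intracellular aquaporin gene with 69 and 81 reads. Aqp4, the water channel gene of astrocyte end-feet, had 10 and 6 reads, and no difference was detectable at this depth.

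In the CLIC family, Clic4, a widely expressed relative of Clic6, had 1777 and 1957 reads, log2 ratio 0.08 (interval -0.01 to 0.18). Clic6 was the single gene of the 4 measured in this family that was at least 1.5-fold apart. The accessory subunit Kcne2 joins channel pores encoded by genes that did not share its low ratio. Kcna3, the gene of a voltage-gated potassium channel pore, was higher in the knockout library, with 109 and 173 reads and log2 ratio 0.61 (interval 0.26 to 0.97), and Kcnq1 had 4 and 13 reads, below the read minimum.

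Inward rectifier genes had 10 measured members and 0 at least 1.5-fold apart. Kcnj10, a glial potassium channel gene with the most reads of this list, had 259 and 210 reads, log2 ratio -0.36 (interval -0.63 to -0.09). The list of sodium-proton exchangers and their scaffold proteins had 8 measured genes, of which Slc9a9, an endosomal exchanger gene with 25 and 50 reads, was higher, with log2 ratio 0.93 (interval 0.22 to 1.70). Slc9a3r2, a scaffold gene with 129 and 88 reads, was lower, at -0.61 (-1.02 to -0.21).

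**Figure D4:**
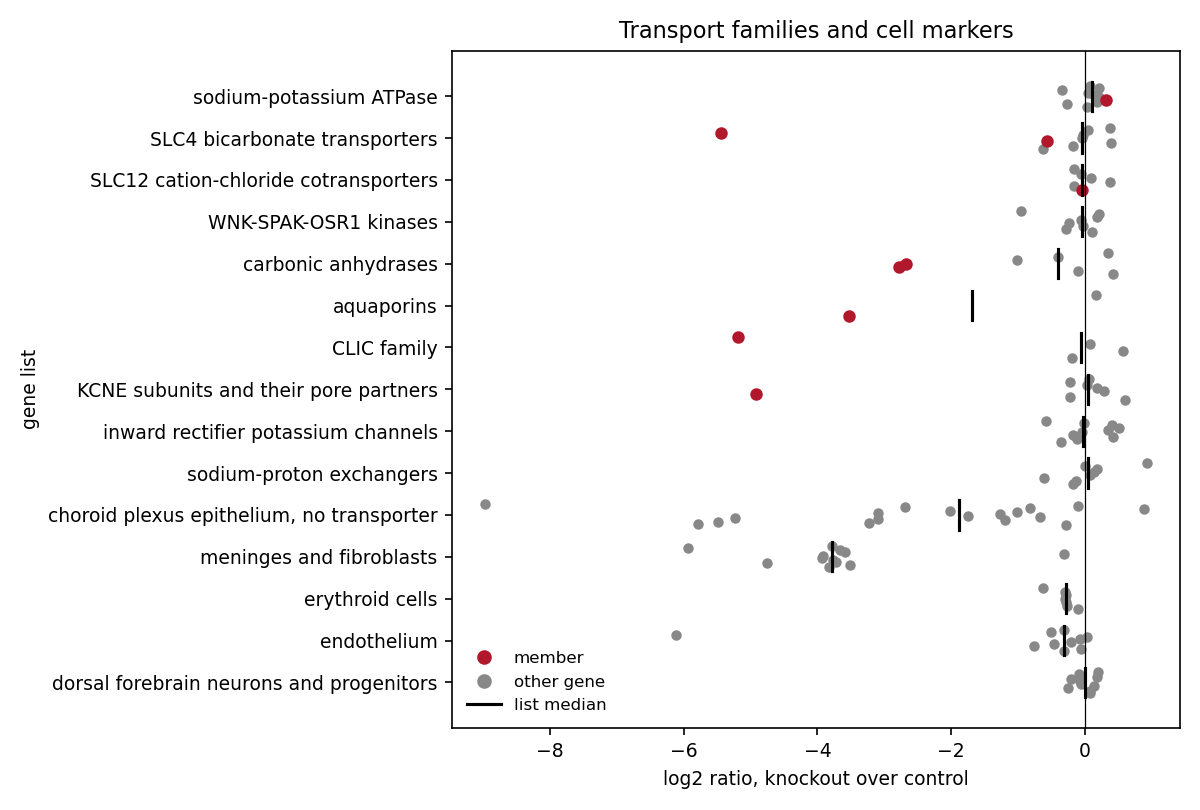
Log2 ratio of knockout over control (x axis) for each measured gene of 10 transport lists and 5 marker lists (y axis), with members in red, other genes in grey and the list median as a bar. The red points of Slc4a5, Car12, Car14, Aqp1, Clic6 and Kcne2 lie left of all other genes of their families, and choroid plexus, meningeal and endothelial markers also reach beyond -5; genes with 0 knockout reads are drawn with 0.5 read added.

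Markers of the choroid plexus that are no transporters were lower in the same library. Of 18 measured, 15 were at least 1.5-fold lower, against 5.43% of all measured genes. Of the 18, 11 had at least 20 control reads but under 20 knockout reads. Genes of this kind passed the read minimum largely through the control library, so the count is a description of them. Prlr, which encodes the receptor for prolactin, was higher, from 7 to 14 reads, with an interval that includes 0. The list sum was 1139 CPM against 245.4 in the knockout library, and Calml4 and the tight junction gene Cldn2, with 26 and 21 control reads, had 0 in the knockout library. Of these sums Ttr alone gave 702 CPM for the control and 1.35 for the knockout, and Tmem72, which encodes a transmembrane protein, gave 144.2 and 134.5. Tmem72 had 1237 and 1200 reads, log2 ratio -0.10 (interval -0.22 to 0.02), and was level. Ttr, the gene of the thyroid hormone carrier transthyretin, had 6025 and 12 reads, log2 ratio -8.97 (interval -9.98 to -8.22), below the interval of Clic6. The homeobox factor gene Otx2, needed for choroid plexus development, had 136 and 70 reads, log2 ratio -1.01 (interval -1.45 to -0.59), above the intervals of Clic6, Kcne2, Aqp1, Slc4a5, Car12 and Car14. The log2 ratios of the 18 measured markers ran from -8.97 to 0.89, and those of the 9 measured members from -5.44 to 0.32. These ranges depend on list length and read depth, since Ttr had 6025 control reads against 62 to 227 for the lower members.

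Of the marker lists of other cells, the meningeal one was mostly lower in the knockout library, and most genes of the others were within 1.5-fold of level. Median log2 ratios were -3.77 for the meningeal, -0.31 for the endothelial and -0.28 for the erythroid list. The dorsal forebrain list had a median of 0.0083, and all measured genes had 0.00176. On the list of meninges and fibroblasts, 11 of 12 measured were lower by 1.5-fold or more, against 5.43% of all measured genes. Of the 12, 9 had at least 20 control reads but under 20 knockout reads. Such genes passed the read minimum largely through the control library, so the count is a description of them. The meningeal list sum was 273.5 and 21.7 CPM, and Slc22a6, an organic anion transporter gene, went from 29 reads to 0. The collagen gene Col3a1 had the most reads of this list, 657 and 50, and the proteoglycan gene Dcn had 152 and 10. The endothelial list had 2 of 10 lower, the organic anion transporter gene Slco1a4 (33 and 0 reads) and the sialomucin gene Emcn (67 and 41), and sums of 226.5 and 194.7 CPM. Kdr, the gene of a VEGF receptor, had the most endothelial reads, 438 and 436. The list of dorsal forebrain neurons and progenitors had 0 of 10 at least 1.5-fold apart and sums of 5017 and 5207 CPM, with the neuronal tubulin gene Tubb3 highest at 13705 and 16376 reads. On the erythroid list the beta globin gene Hbb-bs had the most reads, 1192 and 1007. The part of these other cells in the members' ratios was not tested.

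The 5 genes with at least 50 control reads whose log2 ratios were nearest the choroid-restricted median, over 2 libraries, were Cldn11, Col1a1, Folr1, Col8a2 and Col6a1, within 0.98 of it. They were picked by this ratio with a minimum on control reads only, so the list is a description. Their knockout reads were 2, 17, 1, 1 and 6 in that order. Intervals ran from -5.59 to -4.10 for Col1a1 and from -11.5 to -3.62 for Col8a2, so the order is uncertain. Folr1 encodes folate receptor alpha, Cldn11 a tight junction protein, and the other 3 encode collagen chains.

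Kcne2 and Clic6 are neighbours on chromosome 16, with 187.6 kb between them. Of the measured genes between them, Smim11, which encodes a small membrane protein, had 131 and 112 reads, log2 ratio -0.28 (interval -0.66 to 0.09). Rcan1, the gene of a calcineurin regulator, had 410 and 525 reads, log2 ratio 0.30 (interval 0.11 to 0.49). Fam243, between Smim11 and Rcan1, had 7 and 0 reads and was not measured. Both members were thus low while the 2 measured genes between them lay within 1.5-fold of level.

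**Figure D5:**
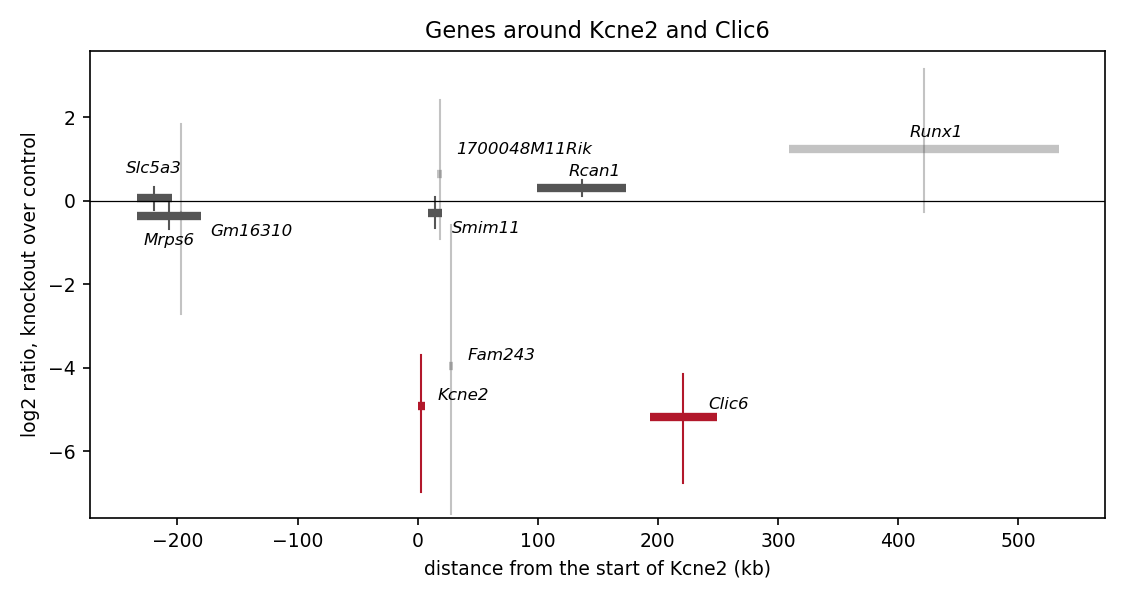
Log2 ratio of knockout over control (y axis) for genes around Kcne2 and Clic6, drawn as horizontal bars at their distance from the start of Kcne2 in kb (x axis), with vertical lines for exact 95% intervals; pale bars had under 20 reads, and the interval of Fam243 has no lower end. Kcne2 and Clic6 lie near -5, and Smim11 and Rcan1 between them lie near 0.

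Over all 10 genes, 76 measured neighbours that are no member lay within 250 kb. Of these 9.21% were at least 1.5-fold lower and 9.21% at least 1.5-fold higher, against 5.43% and 3.52% of all measured genes. The interval excluded 0 for 2 of the 7 lower neighbours and 4 of the 7 higher ones. The median log2 ratio of the 76 neighbours was 0.00488. The lowest measured neighbour was F5, the gene of coagulation factor V, which the choroid plexus also expresses. F5 lies within 250 kb of Atp1b1 and had 20 and 2 reads, log2 ratio -3.09 (interval -6.52 to -1.34), whereas Atp1b1 itself was higher in the knockout library.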

How the data were processed

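Per the labels' protocols, Trizol was used for extraction and 2 ug of RNA went into each TruSeq preparation. Of tools and builds, TopHat2 2.0.12, HTSeq 0.6.0, mm9 and Bowtie2 2.2.3 appear, without roles, per the submitters' processing notes. Gene positions in the deposited table were nevertheless those of GRCm38: the positions of all 10 members were identical to GENCODE M21, and coordinates are given as GRCm38. The authors deposited raw read counts per gene, per the file headers, and CPM columns in which a count of 0 is entered as 0.5 read. The deposited fold ratio and log2 columns are control over knockout, and the test behind the deposited p-value columns is not stated.

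Counts were scaled by TMM in edgeR 4.0.16 (R 4.3.3), and log2 ratios took a prior of 0.5 read. Exon length is the union of GENCODE M21 exons. Where a library had 0 reads, folds are against 3 reads in that library. Intervals used scipy 1.17.1, tables pandas 2.3.3 with numpy 2.4.6 under Python 3.11.15, and plots matplotlib 3.10.9. Scaling by library total and by DESeq2 1.42.0 size factors, a prior of 5 reads, other read minimums, a 2-fold limit and another place for Car14 were tried. The calculation was tested on simulated counts.

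The members, the lists and the split into choroid-restricted and broadly expressed genes were chosen with earlier results of these data known. Genes named are the members, genes overlapping them, H2afz, up to 4 genes per list furthest from 0 among those at least 1.5-fold apart with an interval that excludes 0, the gene with most reads in each list, and the 5 genes nearest in ratio. Genes named outside this rule, after their values were seen, are Slc4a1, Slc4a10, Slc12a5, Car2, Car15, Aqp4, Kcnq1, Prlr, Tmem72, Otx2, F5, Smim11, Rcan1 and Fam243. Some genes that this rule names are not reported here.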

Additional observations from a re-analysis of the deposited data

How the results depend on the processing

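Directions of the 9 measured members were unchanged under each alternative that gave a value. On the log2 scale Clic6 ranged from -5.22 to -4.46, Kcne2 from -4.95 to -3.96, Aqp1 from -3.57 to -2.99 and Slc4a5 from -5.47 to -3.54. Car12 ranged from -2.82 to -2.52, Car14 from -2.71 to -2.38 and Atp1b1 from 0.28 to 0.34. For the 6 lower genes the values nearest 0 came under a prior of 5 reads. The number of members at least 1.5-fold lower was 6, but 7 with scaling by library total (Slc4a2 added) or with no read minimum (Kcnj13 added), and 5 with a minimum of 100 reads, which leaves out Slc4a5. The median of the choroid-restricted genes ranged from -4.95 with scaling by library total to -3.54 with a prior of 5 reads. With Car14 among the choroid-restricted genes the median of the broadly expressed ones was -0.0384 and that of the choroid-restricted ones -4.22. The number of related genes at least 1.5-fold apart was 6, but 2 with a minimum of 100 reads, 17 with no minimum, 4 with a prior of 5 reads and 1 at a 2-fold limit. The number of neighbours apart was 14, but 3 with a minimum of 100 reads, 30 with no minimum, 13 with scaling by library total, 12 with a prior of 5 reads and 5 at a 2-fold limit. Other read minimums and fold limits change these counts by construction. No paired analysis was possible because each genotype has 1 count column. Knockout counts of 0 to 18 reads limit the precision of the lower genes, and replicate error is unknown.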
